A study of Mus musculus with 28 samples.

Results

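The 9 genes described here carry out or control the synthesis and breakdown of glycogen, and were chosen by name from the 53342 gene IDs that each count table holds. They were the glycogen phosphorylases Pygm, Pygb and Pygl, the synthesis enzymes Ugp2, Gyg, Gys1 and Gbe1, and the regulators Ppp1r3c and Phka1. The set was selected on the difference of the knockout effect between postnatal day (P) 17 and P24 in bulk cortex, with earlier results of these data known, so its bulk values are given as a description. The bulk fits were run over all genes, and how many of the 9 passed their threshold is printed beside the share of all genes, but nothing is read from it. All 9 symbols were found in the annotation and all 9 passed the filter on low counts in each comparison, so none was lost.

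The data were gene counts from the cerebral cortex of C57BL/6J mice, with 1 mouse per library. Conditional knockout mice (cKO) carried mGFAP-Cre and loxP sites on both alleles of the targeted gene, and control mice (Ctrl) were sex-matched littermates with loxP/loxP or loxP/+ alleles, for which no Cre driver was listed. Bulk cortex was sequenced at P17 and at P24, with 4 Ctrl and 4 cKO mice at each age. Translating ribosome affinity purification (TRAP) was carried out at P24 in 3 Ctrl and 3 cKO mice, in which mGFAP-Cre also switched on the tagged ribosomal protein EGFP/Rpl10a, and each mouse gave an Input (the cleared homogenate) and an IP (the RNA pulled down with the tag). The tag needs Cre, a driver that the listed genotype of Ctrl mice does not give, and it marks ribosomes of every cell in which mGFAP-Cre had been active.

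Glycogen is the branched glucose store of the brain and lies mainly in astrocytes, which break it down when neurons around them are active and extracellular potassium rises. UDP-glucose pyrophosphorylase makes the glucose donor, glycogenin starts the chain, glycogen synthase extends it and the branching enzyme branches it. Glycogen phosphorylase releases glucose units again, phosphorylase kinase turns it on, and protein phosphatase 1, brought to the particle by targeting subunits, favours synthesis.

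Total counts per library were 8855488 to 11454729 in P17 bulk, 12603888 to 14575306 in P24 bulk, 18433087 to 27242445 in Input and 23336491 to 26153084 in IP. The Input library of cKO replicate 1 stood apart, with a chi-square over its degrees of freedom of 85.2 and 89.8 against the other cKO Input libraries, which differed from each other by 8.99. Its 3 blood markers summed to 428 CPM (counts scaled to the depth of the library), against 83.9 to 139 CPM in the other 5 Input libraries. In Ctrl mice the IP was enriched over Input for 6 of 6 astrocyte markers, with a median log2 fold change of 3.78, and 4 of 5 neuronal, 5 of 5 microglial and 3 of 3 endothelial markers were lower in IP.

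In the GRCm38 annotation the phosphorylase genes are Pygm (ENSMUSG00000032648) at chr19:6384399-6398459, Pygb (ENSMUSG00000033059) at chr2:150786735-150831758 and Pygl (ENSMUSG00000021069) at chr12:70190811-70231488. The synthesis genes are Ugp2 (ENSMUSG00000001891) at chr11:21321138-21371201, Gyg (ENSMUSG00000019528) at chr3:20122084-20155317, Gys1 (ENSMUSG00000003865) at chr7:45434844-45456619 and Gbe1 (ENSMUSG00000022707) at chr16:70313949-70569716. The regulators are Ppp1r3c (ENSMUSG00000067279) at chr19:36731731-36736653, on the same chromosome as Pygm, and Phka1 (ENSMUSG00000034055) at chrX:102513975-102644246. The tables give 1 count per gene, so isoforms of a gene are not separated.

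The sequence before the start site is shown for the 3 phosphorylases, which moved together in IP, and for Ppp1r3c, which was higher in P24 bulk cKO. Each stretch runs 5' to 3' on the gene's own strand (RefSeq, GRCm38.p6) and stops before the first annotated exon that it meets. Capitals mark matches on either strand to the cAMP response element half-site TGACG, the E-box CACGTG, the GC box GGGCGG, the CCAAT box CCAAT and the TATA box TATAAA.
Pygm (chr19:6384158-6384398, + strand): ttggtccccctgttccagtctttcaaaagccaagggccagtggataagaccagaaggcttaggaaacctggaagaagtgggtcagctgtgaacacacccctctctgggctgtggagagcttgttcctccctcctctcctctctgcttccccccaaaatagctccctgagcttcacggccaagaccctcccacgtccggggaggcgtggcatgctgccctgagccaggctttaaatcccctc
Pygb (chr2:150786546-150786734, + strand): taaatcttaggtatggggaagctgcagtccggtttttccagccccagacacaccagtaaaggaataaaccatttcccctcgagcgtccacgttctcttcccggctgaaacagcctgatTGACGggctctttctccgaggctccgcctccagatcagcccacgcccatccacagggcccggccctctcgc
Pygl (chr12:70227684-70227933, - strand): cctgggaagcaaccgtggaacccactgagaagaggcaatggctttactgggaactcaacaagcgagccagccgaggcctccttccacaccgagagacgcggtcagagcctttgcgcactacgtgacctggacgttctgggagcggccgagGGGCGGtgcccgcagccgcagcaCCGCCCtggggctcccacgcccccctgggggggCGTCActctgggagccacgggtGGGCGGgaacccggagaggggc
Ppp1r3c (chr19:36736654-36736854, - strand): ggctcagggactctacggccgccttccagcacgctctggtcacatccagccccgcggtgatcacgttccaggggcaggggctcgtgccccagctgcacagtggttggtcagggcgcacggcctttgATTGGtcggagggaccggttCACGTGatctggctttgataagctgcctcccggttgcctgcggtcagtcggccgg
The 241 bases of Pygm held none of the 5 motifs, as did 31.8% of the 32851 promoter windows of that length. Pygb held 1 TGACG, found in 11.6% of windows of 189 bases. Pygl held 1 TGACG and 3 GC boxes, found in 17.8% and 32.7% of windows of 250 bases. Its RefSeq start lies inside the annotated gene, downstream of the start of a longer transcript. Ppp1r3c held 1 E-box and 1 CCAAT box, found in 4.36% and 28.6% of windows of 201 bases. The matches are a description of the letters in these windows.

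Levels of different genes were compared only as CPM per kilobase of exon. In P24 bulk Ctrl, Pygb, the brain isoform of phosphorylase, was highest at 26.0 ± 1.00 CPM per kb (SD, n = 4). It was followed by Pygm (10.5 ± 1.07) and Ugp2 (9.05 ± 0.758), whose spreads overlapped, then by Ppp1r3c (6.89 ± 0.472) and Gyg (6.75 ± 0.273), which also overlapped. Phka1 (4.30 ± 0.603) and Gys1 (3.68 ± 0.542) overlapped too, and Gbe1 (1.68 ± 0.191) and Pygl (0.382 ± 0.0432) were lowest. Pygl, the liver isoform, rested on 17 to 42 counts per bulk library, so its bulk values are the least precise of the set.

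In bulk cortex, Pygm, the muscle isoform of phosphorylase, was lower in cKO mice at P24 and overlapped Ctrl at P17, and Ppp1r3c, which encodes the glycogen-targeting subunit of protein phosphatase 1 also called PTG, was higher at P24 (plot of CPM by bulk library). The other 7 genes differed less from Ctrl at P24. At P17 the groups overlapped for all 9 genes, and Pygl had a log2 fold change of -0.18 beside 0.09 for Pygm. A gene was called where its p from edgeR's quasi-likelihood test, adjusted over the whole table by Benjamini-Hochberg, was under 0.05. At P24, 2 of 9 genes were called beside 1.72% of all 22495 genes, and at P17 0 of 9 beside 0.0943% of 21201. The rule used these contrasts. At P17, 1 of the 9 had an unadjusted p under 0.05 with edgeR, beside 847 of the 21201 genes, and DESeq2 called 0 of the 9.

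**Figure D1:**
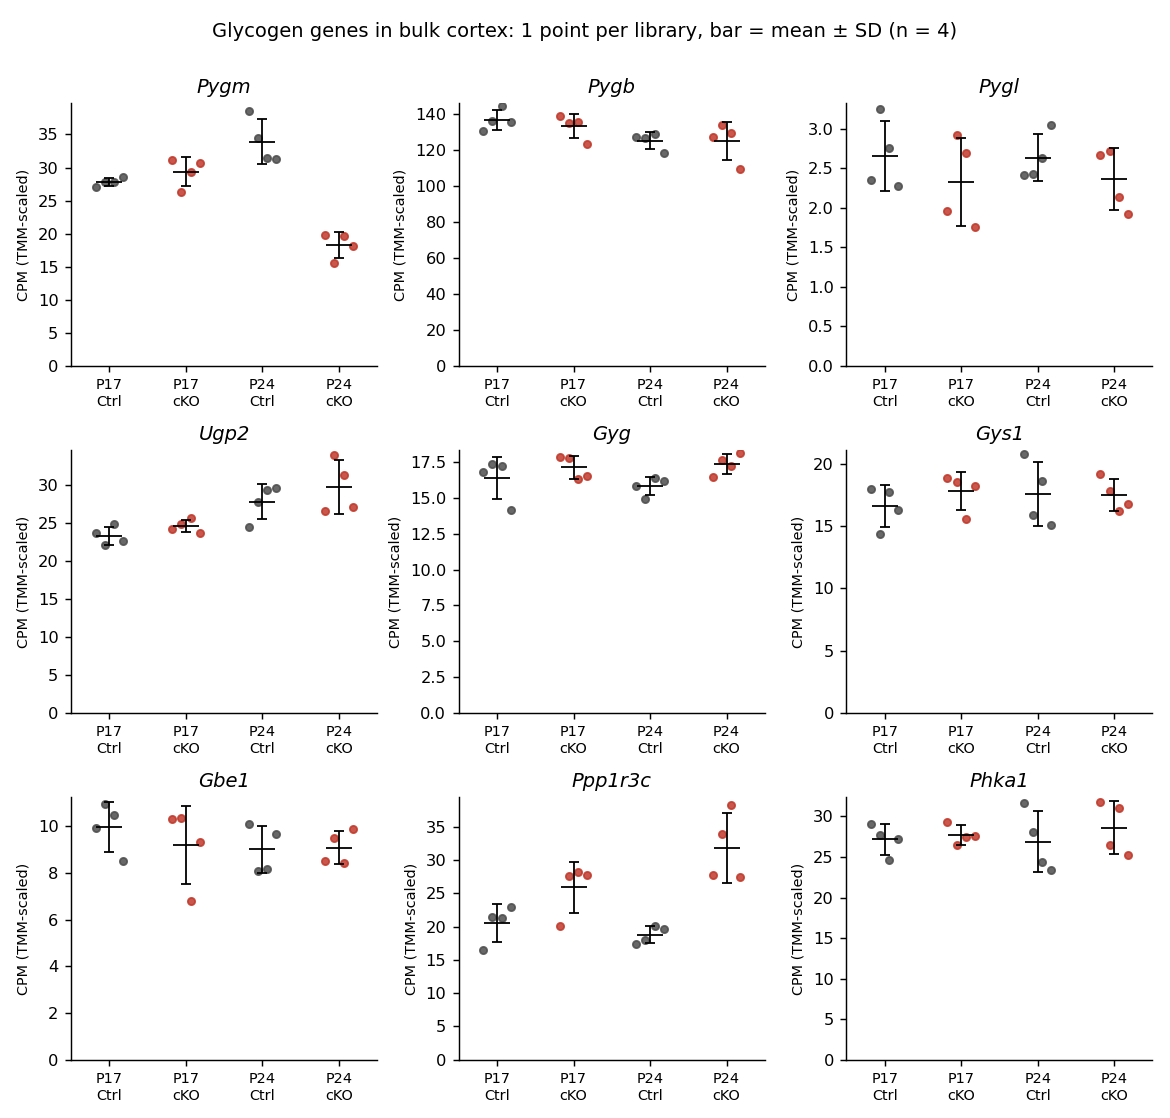
CPM (TMM-scaled within each age, y axis from 0) of the 9 glycogen genes in the 16 bulk libraries, with Ctrl in grey and cKO in red. Each point is 1 mouse and the bar is the mean ± SD of 4. Pygm separates at P24, with 15.6 to 19.8 CPM in cKO against 31.3 to 38.6 in Ctrl, and Ppp1r3c with 27.4 to 38.3 against 17.3 to 20.1.

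Pygm stood at 38.6, 34.4, 31.4 and 31.3 CPM in the 4 P24 Ctrl libraries and at 19.8, 15.6, 19.6 and 18.1 CPM in the 4 P24 cKO libraries. Every cKO library lay below every Ctrl library. The log2 fold change was -0.88 (SE 0.09), or 0.542 of the Ctrl level. At P17 Pygm stood at 27.1, 27.8, 27.8 and 28.6 CPM in Ctrl and at 31.2, 26.2, 29.3 and 30.7 CPM in cKO, so the groups overlapped, with a log2 fold change of 0.09 (SE 0.07). The difference between the ages in the knockout effect was -0.97 (SE 0.12) on the log2 scale, the largest in size among the 9 genes. In bulk cortex, fewer cells of a type and less RNA per cell cannot be told apart.

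Ppp1r3c stood at 17.3, 18.03, 20.1 and 19.6 CPM in P24 Ctrl and at 27.7, 33.9, 38.3 and 27.4 CPM in P24 cKO. The groups did not overlap, and the log2 fold change was 0.76 (SE 0.10), or 1.70 times the Ctrl level. At P17 it stood at 16.5, 21.4, 21.3 and 22.9 CPM in Ctrl and at 20.1, 27.5, 28.2 and 27.7 CPM in cKO. Here 1 cKO library, replicate 1, lay within the Ctrl range, and the log2 fold change was 0.35 (SE 0.12). Same-numbered Ctrl and cKO libraries deviated together at P17, but the labels state no pairing. With the number as a block 1 of 9 genes, Ppp1r3c, passed the threshold at P17, beside 0.514% of all genes. The rule used this contrast. The age difference was 0.41 (SE 0.18) on the log2 scale.

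The remaining 7 genes had log2 fold changes between -0.15 for Pygl and 0.14 for Gyg at P24, and between -0.18 for Pygl and 0.11 for Gys1 at P17. Gyg, the primer protein glycogenin, stood at 15.8, 14.9, 16.4 and 16.2 CPM in P24 Ctrl and at 16.5, 17.7, 17.2 and 18.1 CPM in P24 cKO. These groups did not overlap, although the log2 fold change was only 0.14 (SE 0.06). Of the 9 age differences, 1 was called, beside 0.047% of all 23395 genes, and the rule used that contrast too.

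The 4 skeletal muscle markers, of interest because Pygm is the muscle isoform, summed to 20.0 to 22.8 CPM in P24 Ctrl and 21.01 to 22.9 CPM in P24 cKO. Most of this sum was Acta1, with a mean of 19.1 CPM in each genotype, and Ckm, Mylpf and Myh1 had means of 0.480 to 1.36 CPM. The 6 astrocyte markers summed to 1276 to 1332 CPM in Ctrl and 1185 to 1386 in cKO, although Aldh1l1 rose and Slc1a3 and Slc4a4 fell. Both sums overlapped between the genotypes. Their part in the Pygm and Ppp1r3c values was not tested.

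Among the 3 phosphorylases, taken per kilobase, Pygm made up 28.5% ± 1.87 (SD, n = 4) of the summed level in P24 Ctrl and 17.8% ± 2.18 in P24 cKO. At P17 the share was 23.1% ± 0.698 in Ctrl and 24.6% ± 1.93 in cKO. The share of Pygb at P24 was 70.5% ± 1.79 in Ctrl and 81.1% ± 2.10 in cKO, while Pygb itself stayed at 118 to 129 CPM in Ctrl and 109.6 to 134 in cKO. The P24 groups did not overlap in either share. Pygl made up 1.04% and 1.07%.

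**Figure D2:**
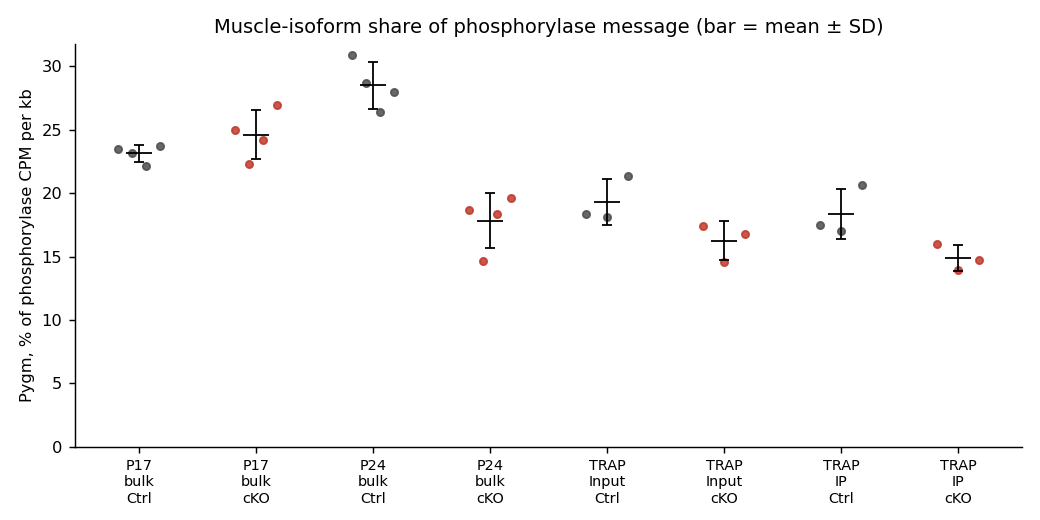
Share of Pygm in the summed CPM per kilobase of Pygm, Pygb and Pygl (percent, y axis from 0) in each of the 28 libraries by group, Ctrl in grey and cKO in red, with mean ± SD. The P24 bulk cKO libraries hold 14.7 to 19.6%, below the 26.4 to 30.9% of P24 bulk Ctrl, while the P17 groups overlap.

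The TRAP mice were other mice than those of the bulk libraries, so the age difference named in the rule did not use their values. The rule did cover all groups, and the genes were chosen with earlier results of these data known. The adjusted p values in TRAP are therefore not from data set apart from the choice. All 9 genes were higher in IP than in Input in Ctrl mice (plot of IP over Input by mouse). Across all 24385 genes tested, 35.3% were higher and 35.7% lower. Ppp1r3c was highest, with IP over Input folds of 11.7, 13.5 and 9.81 in the 3 Ctrl mice and a log2 fold change of 3.48 (SE 0.14, adjusted p = 2.94e-09, edgeR quasi-likelihood test). Ugp2, which makes UDP-glucose, followed with folds of 9.08, 9.85 and 7.13 and a log2 fold change of 3.06 (SE 0.11). Every Ctrl mouse had both genes at least 7.13 times higher in IP.

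Phka1, an alpha subunit of phosphorylase kinase, had a Ctrl log2 fold change of IP over Input of 2.26 (SE 0.14). Those of the phosphorylases were close to each other, at 2.19 (SE 0.19) for Pygl, 2.02 (SE 0.13) for Pygb and 1.96 (SE 0.16) for Pygm. Gys1, glycogen synthase, had 1.42 (SE 0.15), Gyg 1.12 (SE 0.09) and Gbe1, the branching enzyme, 0.62 (SE 0.17, adjusted p = 0.00642, edgeR). Per kilobase, Ugp2 (120.0 ± 12.6 CPM per kb, SD, n = 3) and Pygb (115 ± 11.6) were the highest of the 9 in Ctrl IP and overlapped. The other pathway genes did not share this pattern as a group, since of 30 tested 10 were higher and 15 lower in Ctrl IP.

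**Figure D3:**
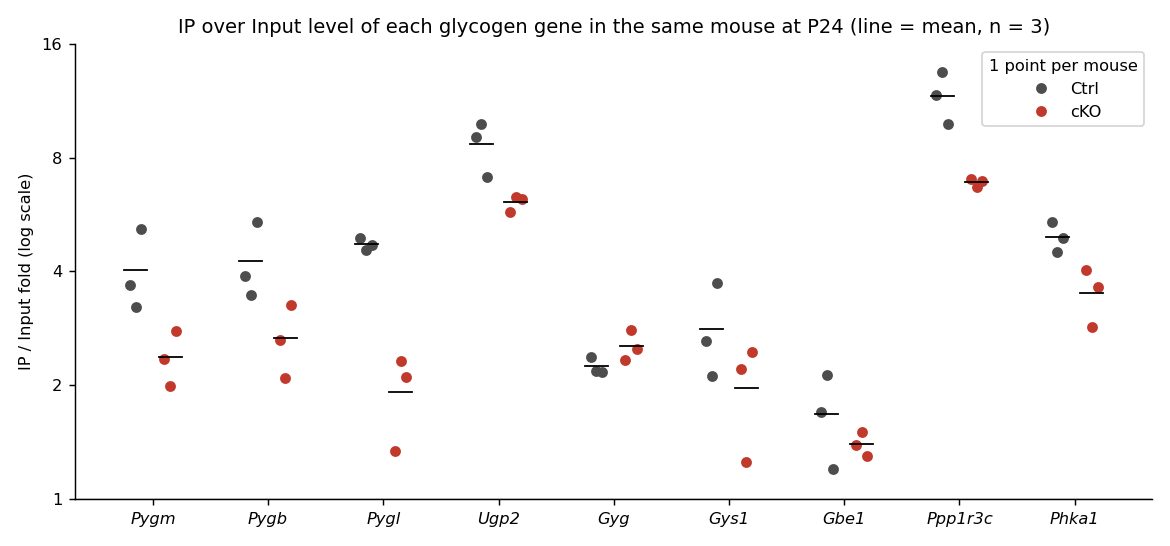
Fold of IP over Input (log scale) for each glycogen gene in the same mouse at P24, for 3 Ctrl mice in grey and 3 cKO mice in red, with the mean as a line. Ppp1r3c spans 9.81 to 13.5 in Ctrl and 6.70 to 7.01 in cKO, and Gbe1 has the mean nearest to 1 in both genotypes.

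In cKO mice all 9 genes were again higher in IP than in Input, beside 27.8% higher and 28.5% lower over 24011 genes. Log2 fold changes ran from 0.47 for Gbe1 to 2.77 for Ppp1r3c. Gbe1 was the weakest call (adjusted p = 0.0419, edgeR) and was lost with the mouse as a block (adjusted p = 0.0513, edgeR). It was also lost in 7 of the other 11 alternatives, and its adjusted p ranged up to 0.161 (edgeR). Without the Input library of cKO replicate 1 all 9 genes were called, Gbe1 at an adjusted p of 0.0124 (edgeR).

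In astrocyte IP at P24, the 3 phosphorylases fell in cKO mice and Gyg rose (plot of CPM by TRAP library). Of 9 genes tested 3 fell, beside 8.42% of all 23864 genes, and 1 rose, beside 11.6%. The median log2 fold change of the 9 genes was -0.32, against -0.015 over all genes, and 8 of 9 were negative.

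**Figure D4:**
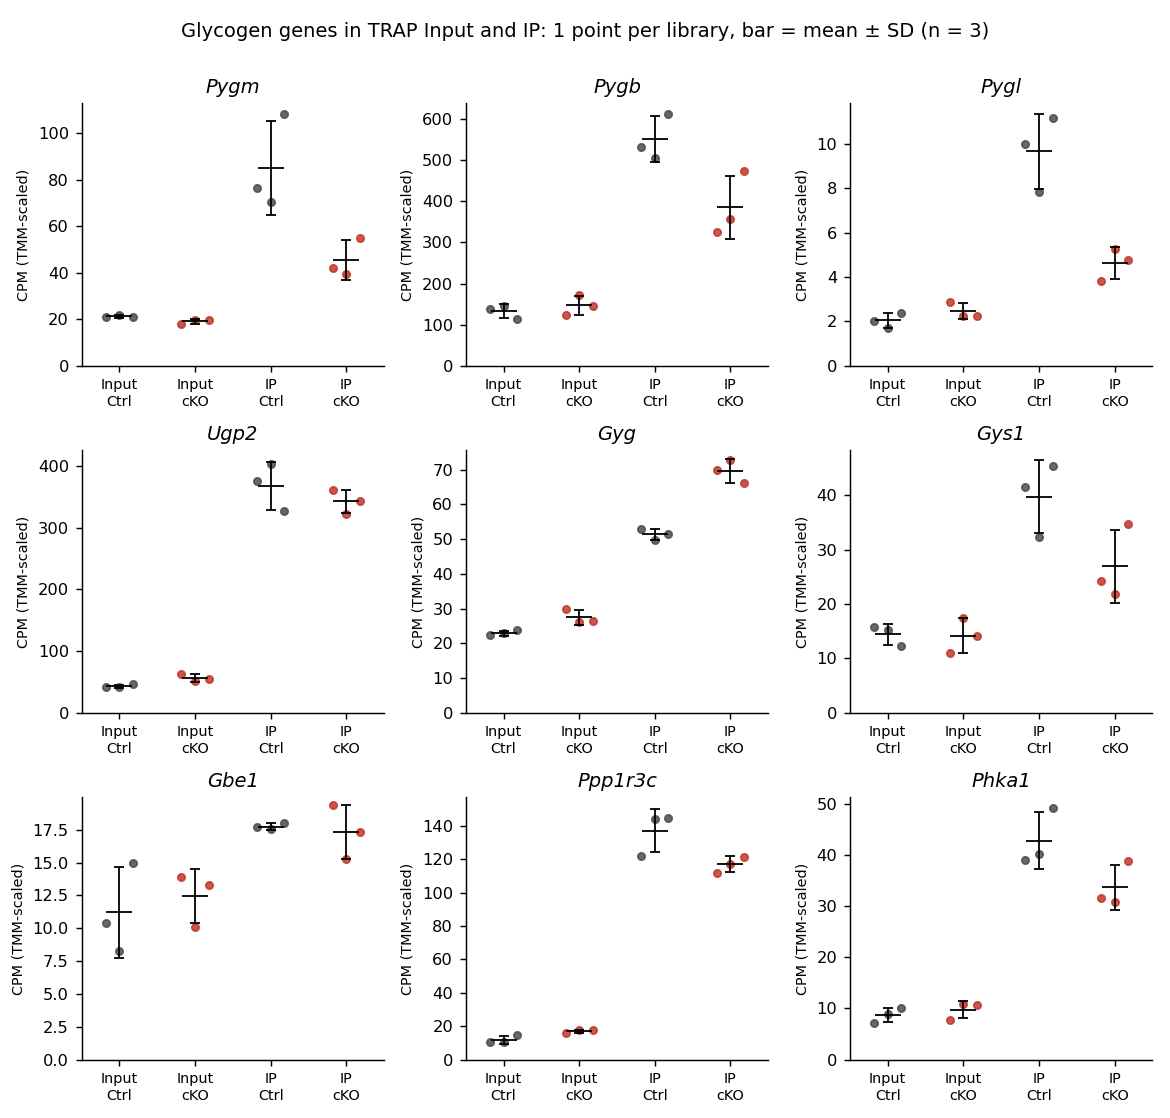
CPM (TMM-scaled over the 12 TRAP libraries, y axis from 0) of the 9 glycogen genes in Input and IP, with Ctrl in grey and cKO in red, 1 point per library and the mean ± SD of 3. In IP the cKO libraries lie below Ctrl for Pygm (39.3 to 55.1 against 70.3 to 108 CPM), Pygb and Pygl, and above it for Gyg (66.1 to 72.9 against 49.8 to 52.8 CPM).

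Pygl had the largest fall. It stood at 9.99, 7.85 and 11.2 CPM in Ctrl IP and at 3.82, 5.25 and 4.76 CPM in cKO IP, on 89 to 283 counts per library. All cKO values were below all Ctrl values, with a log2 fold change of -1.04 (SE 0.18, adjusted p = 0.00289, edgeR quasi-likelihood test). Pygm stood at 76.5, 70.3 and 108 CPM in Ctrl IP and at 41.8, 39.3 and 55.1 CPM in cKO IP. These groups did not overlap either, with a log2 fold change of -0.88 (SE 0.17, adjusted p = 0.00528, edgeR). Pygm, Pygl and Gyg kept their calls in each of the 12 alternatives, at adjusted p up to 0.0325, 0.0144 and 0.0303 (edgeR or DESeq2).

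Pygb, the most abundant phosphorylase, stood at 533, 506 and 614 CPM in Ctrl IP and at 326, 358 and 473 CPM in cKO IP. The groups did not overlap, and the log2 fold change was -0.49 (SE 0.14, adjusted p = 0.0316, edgeR). This call was lost without Ctrl library 1 or 3 (adjusted p = 0.0652 and 0.113, edgeR), without cKO library 1 or 2 (0.103 and 0.123), and when the 12 TRAP libraries shared 1 fit (0.0974). The share of Pygm in the phosphorylase sum was 18.4% ± 1.98 (SD, n = 3) in Ctrl IP and 14.9% ± 1.02 in cKO IP.

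Gyg stood at 52.8, 49.8 and 51.4 CPM in Ctrl IP and at 69.8, 72.9 and 66.1 CPM in cKO IP. It was the 1 gene of the 9 that rose, with a log2 fold change of 0.46 (SE 0.09, adjusted p = 0.00545, edgeR). Per kilobase, Gyg (29.7 ± 1.44 CPM per kb) exceeded Pygm (14.1 ± 2.64) in cKO IP, whereas in Ctrl IP Pygm (26.4 ± 6.33) and Gyg (21.9 ± 0.635) overlapped.

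Gys1 stood at 41.5, 32.3 and 45.4 CPM in Ctrl IP and at 24.3, 21.9 and 34.6 CPM in cKO IP. The ranges overlapped by 1 library in each group, and the log2 fold change of -0.54 (SE 0.17) just missed the threshold (adjusted p = 0.0509, edgeR). Gys1 passed it in 7 of 12 alternatives, among them the replicate number as a block (adjusted p = 0.00214, edgeR). Gys1 shares 310 exonic bases (6.47% of its exons) with Ruvbl2 on the opposite strand, and the strand setting of the counting is not given in the sources used here. Ruvbl2 itself had a log2 fold change of -0.09 in IP.

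Phka1 had a log2 fold change of -0.32 (SE 0.13, adjusted p = 0.0964, edgeR) in IP and Ppp1r3c one of -0.21 (SE 0.10, adjusted p = 0.176, edgeR). Phka1 passed the threshold in 3 of 12 alternatives, among them the replicate number as a block (adjusted p = 0.0127, edgeR), and Ppp1r3c in 1. For both genes all 3 cKO libraries lay below all 3 Ctrl libraries, at 112, 117 and 121.5 against 122.2, 144 and 145 CPM for Ppp1r3c. The share of all genes whose groups do not overlap was not counted. Such separation, here, in Input or in bulk, is therefore only a description. Ugp2 (-0.08, SE 0.10) and Gbe1 (-0.014, SE 0.11) overlapped between genotypes.

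Some of the astrocyte markers also fell in IP. Of 6 astrocyte markers 3 fell in cKO IP, with log2 fold changes of -0.95 for Slc1a3, -0.84 for Gjb6 and -0.74 for Slc4a4, and the median of the 6 was -0.55. The other 3 were not called, and 2 of the 6 had positive values, up to 0.18. Mean levels in Ctrl and cKO IP were 272 and 304 CPM for Aldh1l1, 525 and 400 for Gja1, and 5471 and 5434 for Aldoc, the largest part of the sum. The 6 markers summed to 6755 to 8992 CPM in Ctrl IP and 6156.5 to 8466 CPM in cKO IP, and no marker was at 0. The 4 skeletal muscle markers summed to 9.27 to 12.2 CPM in Ctrl IP and 10.2 to 10.6 CPM in cKO IP, mostly Acta1 (means 7.80 and 7.92). The part of the astrocyte markers' change in the glycogen genes' values was not tested.

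Of the other pathway genes, 29 were tested in cKO against Ctrl IP, of which 4 rose, beside 11.6% of all genes, and 4 fell, beside 8.42%. These counts lie near the shares over all genes and are no result about the pathway. Those that rose were Hk2, a hexokinase (log2 fold change 0.82, SE 0.21), Pgm2, a phosphoglucomutase (0.46, SE 0.12), Ppp1r3e, a targeting subunit of protein phosphatase 1 (0.61, SE 0.11), and Adcy10, the soluble adenylyl cyclase (1.23, SE 0.37, at 0.574 to 2.12 CPM). Those that fell included the phosphatase targeting subunits Ppp1r3d (-0.66, SE 0.11) and Ppp1r3g (-0.68, SE 0.12), and Adora2b, an adenosine receptor (-0.58, SE 0.17). Ppp1r3g stood at 159.7, 194 and 155 CPM in Ctrl IP and 118, 95.9 and 98.8 CPM in cKO IP, so its groups did not overlap. None of the 6 kinase genes was called by edgeR. DESeq2 called 11 genes of the list in IP, against 8 by edgeR, and its count over all genes is not given here. Over the list, 11 of 29 genes had an unadjusted p under 0.05 with edgeR, beside 8048 of all 23864 genes. In P24 bulk, 2 of 31 other pathway genes rose, Hk2 (0.66, SE 0.14) and Phkb, the beta subunit of phosphorylase kinase (0.32, SE 0.05), and 0 fell, beside 1.72% of all genes called in either direction. By edgeR, 0 of 29 were called at P17, 0 of 31 in the age difference and 0 of 31 in Input, and DESeq2 called 0. In these contrasts 2, 4 and 1 had an unadjusted p under 0.05 (edgeR). Over all genes it was 847 of 21201, 1479 of 23395 and 960 of 23828.

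In Input, 0 of 9 glycogen genes were called between cKO and Ctrl, beside 0.109% of all 23828 genes. An unadjusted p under 0.05 (edgeR) was held by 2 of the 9, beside 960 of the 23828 genes, and DESeq2 called 0 of the 9. Ppp1r3c stood at 10.4, 10.7 and 14.8 CPM in Ctrl Input and at 15.98, 17.5 and 17.5 CPM in cKO Input. These groups did not overlap, with a log2 fold change of 0.49 (SE 0.18, adjusted p = 0.812, edgeR). Ugp2 also lay higher in every cKO Input library, with a log2 fold change of 0.38 (SE 0.14, adjusted p = 0.812, edgeR). Without the cKO replicate 1 that stood apart, the log2 fold changes were 0.55 for Ppp1r3c and 0.31 for Ugp2, again with 0 of 9 genes called, among 112 in all against 26. The astrocyte markers summed to 561 to 631 CPM in Ctrl Input and 974 to 1089 CPM in cKO Input. Most of this sum was Aldoc, with means of 404 CPM in Ctrl and 775 in cKO. Aldh1l1 (50.1 and 94.9 CPM) and Gja1 (30.1 and 42.0) were also higher in cKO. Slc1a3 (72.2 and 76.0) and Gjb6 (14.9 and 14.8) hardly differed, and Slc4a4 was lower (34.9 and 29.7). Of the 6 markers 1 was called, and the part of the markers in these values was not tested.

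Pygm stood at 20.8, 21.8 and 20.9 CPM in Ctrl Input and at 17.8, 19.8 and 19.8 CPM in cKO Input. All cKO values were lower, with a log2 fold change of -0.16 (SE 0.14), or -0.10 without cKO replicate 1, beside -0.88 in P24 bulk and -0.88 in IP. The Input and bulk libraries came from different mice and preparations, and the difference between their Pygm values was not tested. Endothelial markers summed to 3.23 to 5.45 CPM in Input and 62.9 to 81.0 CPM in P24 bulk, levels that are not on 1 scale. Sums of other cell types were lower in Input too. Astrocyte markers had 561 to 1089 CPM in Input and 1185 to 1386 in P24 bulk, microglial markers 129 to 155 and 177 to 212. Oligodendrocyte markers had 1839 to 2079 and 3278 to 4519. Neuronal and muscle sums overlapped. Blood sums were 83.9 to 428 CPM in Input and 283 to 838 CPM in P24 bulk. They overlapped only through Input cKO replicate 1, and the next highest Input library had 139 CPM. The part of any of them in the Pygm values was not tested.

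**Figure D5:**
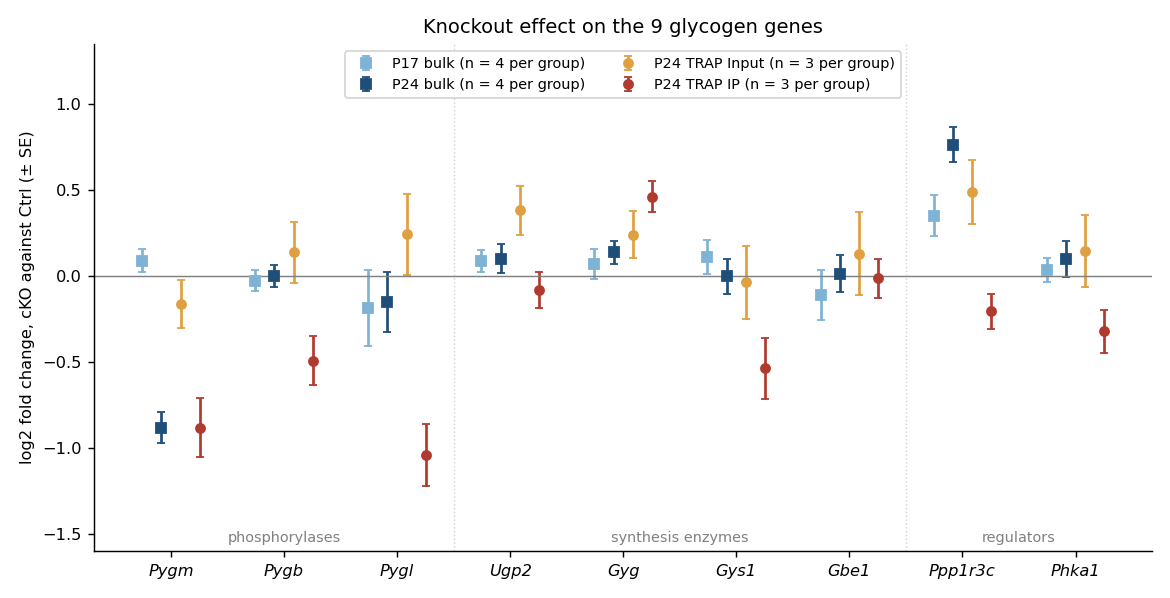
Log2 fold change of cKO against Ctrl with its SE for each glycogen gene in P17 bulk, P24 bulk, TRAP Input and TRAP IP. Pygm lies at -0.88 in both P24 bulk and IP and at 0.09 in P17 bulk, and Ppp1r3c lies at 0.76 in P24 bulk and -0.21 in IP.

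Whether the knockout effect differed between IP and Input was tested by the interaction of fraction and genotype. None of the 9 genes was called, beside 0.0582% of all 25768 genes. Of the 9 differences 8 were negative, with a median of -0.51 against -0.033 over all genes. An unadjusted p under 0.05 (edgeR) was held by 5 of the 9, beside 2252 of the 25768 genes. DESeq2 called 2 of the 9, among 299 genes in all. With the mouse as a block, edgeR called 0 of the 9 and 6 genes in all, against 15 without it. Ppp1r3c was lower in cKO in each IP library and higher in cKO in each Input library, and its difference was -0.70 (SE 0.20, adjusted p = 0.258, edgeR). Pygl had the largest difference at -1.29 (SE 0.29, adjusted p = 0.142, edgeR), and Pygm had -0.72 (SE 0.24, adjusted p = 0.353, edgeR). Without the Input library of cKO replicate 1, 432 genes were called in all and again 0 of the 9, with adjusted p of 0.0538 for Ppp1r3c, 0.0545 for Pygl and 0.096 for Pygm (edgeR). DESeq2 called Pygl (adjusted p = 0.0148) and Ppp1r3c (adjusted p = 0.0374). All 6 astrocyte markers were also negative in this contrast, with a median of -0.83 and 0 called.

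Genes most like 3 of the members across the 8 group means of log2 CPM were sought among 21183 genes with a mean of at least 1 CPM. For Pygm these were Olfr286 (Pearson r = 0.994), Gm44579 (0.986) and Olfr288 (0.979). For Ppp1r3c they were Hepacam (0.995), Tmem198b (0.995) and Pdlim5 (0.995), and for Gys1 Ammecr1l (0.994), Capn2 (0.993) and Gas1 (0.993). The 8 points share libraries, preparation and the large step from Input to IP, so these values only describe likeness.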

How the data were processed

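The authors extracted RNA from the cortex of 1 mouse per bulk library, primed it with oligo-dT and mapped reads to mm10 with STAR in Galaxy. TRAP libraries were made with oligo-dT beads from RNA of the Input and of the IP of each mouse. The deposited tables hold raw gene counts, 1 for each age of bulk cortex and 1 for TRAP. The counting tool, strand setting and annotation are not given in the sources used here. Bulk columns have the same names at both ages and were assigned by the age of their table. Symbols, positions and exonic lengths came from GENCODE M21 (GRCm38), which named 53237 of 53342 IDs. The last ID of the P24 bulk table is cut short and was joined to no gene. The members and lists were chosen with earlier results of these data known.

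Counts were scaled with TMM factors and fitted with edgeR 4.0.16 (glmQLFit and glmQLFTest, R 4.3.3) over the groups compared, with Benjamini-Hochberg adjustment. Genes were first filtered with filterByExpr, at a minimum count of 10 and a minimum total of 15 over all libraries. Its proportion setting was 70%, which takes effect only in groups larger than those here. SE is the absolute log2 fold change divided by the square root of F. CPM were scaled within P17, within P24 and within TRAP, so levels set across them are not on 1 scale. DESeq2 1.42.0, other scalings, no filter, the replicate number as a block, 1 fit per experiment and leaving out each library were the alternatives. Named are all 9 members, the other pathway genes called in IP or Input, the 3 genes most like Pygm, Ppp1r3c and Gys1, while Hk2 and Phkb in bulk, the markers and Ruvbl2 were named after their values were seen. Same-numbered Ctrl and cKO libraries deviated together in 4 of 4 pairs at P17 (correlations 0.167 to 0.380), and Input and IP of 1 mouse are paired by animal (correlations 0.069 to 0.080 in Ctrl and -0.10 to 0.12 in cKO). The fit was also run on simulated counts, with the outcome not reported here. The check of the targeted gene and the values of 1 other pathway gene are not reported here. No pair of replicates was a duplicate, since the chi-square over its degrees of freedom was 2.79 to 89.8, highest for the pairs with Input cKO replicate 1. At most 5.79% of the 50-base stretches of a member's transcripts occurred in another gene, and Pygm and Pygb shared 13. A floor of 3 counts was never reached by a member.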

Additional observations from a re-analysis of the deposited data

Results flagged for a closer look

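Of 36 sets of 4 bulk libraries (9 genes in 4 groups), 2 held a library far from the others by Dixon's test at the 95% level, which chance gives in about 1 of 20. In P17 Ctrl, Gyg stood at 14.2 CPM in replicate 4, with the other libraries at 16.8 to 17.4. In P17 cKO, Ppp1r3c stood at 20.1 CPM in replicate 1, with the other libraries at 27.5 to 28.2. The knockout effect on Pygm differed between P24 and P17 by -0.97 on the log2 scale, the contrast by which the genes were chosen.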

How the results depend on the processing

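The number of glycogen genes called was 9 in Ctrl IP over Input under each alternative, and 8 or 9 in cKO IP over Input, where Gbe1 was lost in 8 of 12. In bulk, where the contrasts chose the genes and the number supports nothing, it was 2 at P24, 1 in the age difference, and at P17 0, or 1 with the replicate block. It was 7 in IP with library size alone, a scaling that moved the median log2 fold change of all genes to -0.13, and 2 in the interaction of fraction and genotype with DESeq2. In IP it ranged from 3 to 6 without 1 library. Numbers of all genes called moved more. DESeq2 gave 600 at P24, 41 at P17, 55 in the age difference, 117 in Input and 299 in the interaction. No filter gave 618, 55, 62, 112 and 189. One fit per experiment gave 1684 in IP and 127 in Input. The replicate block gave 109 at P17, 55 in the age difference, 8 in Input and 6 in the interaction. The labels link Ctrl and cKO libraries only by a number, at P17 too. Correlations of same-numbered libraries were 0.029 to 0.22 at P24, 0.036 to 0.12 in IP and -0.034 to 0.10 in Input. There the block moved the number of all genes called from 388 to 410, 4782 to 6735 and 26 to 8. Of these libraries 4 of 8, 6 of 6 and 3 of 6 correlated best with their own number, against 8 of 8 at P17. In IP the number may therefore pair the libraries. The block added Gys1 and Phka1 in IP and changed no call of a member in P24 bulk, Input or Ctrl IP over Input.

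Without 1 library, all genes called ranged from 216 to 950 at P24 (highest without cKO replicate 1), 11 to 19 at P17, 4 to 149 in the age difference (highest without P24 cKO replicate 1), 2633 to 4810 in IP (lowest without cKO replicate 2), 4 to 112 in Input and 3 to 432 in the interaction (both highest without Input cKO replicate 1). Signs of small log2 fold changes turned without 1 library for Gbe1 in IP (-0.067 to 0.072), for Gys1 (-0.23 to 0.12), Gbe1 (-0.0495 to 0.40) and Pygb (-0.0014 to 0.26) in Input, and for Gbe1 in the interaction (-0.44 to 0.0095). In bulk the sign also turned under at least 1 alternative for 10 of 27 values, which lay between -0.18 and 0.15: Gbe1, Gys1 and Pygb at P24, Gbe1, Phka1 and Pygb at P17, and Phka1, Pygb, Pygl and Ugp2 in the age difference. The causes were not tested. With 3 or 4 mice per group, and Pygl at 17 to 64 counts in bulk and Input, a difference that missed the threshold does not show equal levels.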
